A study of Mus musculus with 4 samples.

Results

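The genes of fatty acid breakdown and fatty acid synthesis form a set of 43 genes, of which 29 belong to uptake, activation, oxidation and ketogenesis and 14 to lipogenesis and triglyceride assembly. They were listed by name with earlier results of these data known, the rule itself using no measured value, and all 43 were found among the 22350 protein-coding genes of the mouse annotation (GENCODE M1, genome build mm9). A peak was assigned to a gene when it lay within 5 kb of the gene body, which gave 33 of the 4663 listed peaks to the set. The data are chromatin immunoprecipitation sequencing (ChIP-seq) of SHP (small heterodimer partner, an orphan nuclear receptor that has no domain for binding DNA itself and represses transcription through other factors) in liver of male C57BL/6 wildtype mice aged 8 to 12 weeks. The mice had been fasted for 12 h and then received either vehicle or 1 mg/kg FGF19, the intestinal hormone that reports bile acid return to the liver, through the tail vein, and livers were taken 2 h later. Material from 3 mice was pooled into 1 ChIP library per group, each with 1 input library, so no difference between vehicle and FGF19 has a replicate check and no p-value was computed. The peak lists held 1508 peaks from 15473647 ChIP tags with vehicle and 3155 peaks from 13444078 ChIP tags with FGF19, so that the FGF19 list was longer although its library was shallower.

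In hepatocytes, long-chain fatty acids are taken up, bound by a carrier protein and activated to acyl-CoA, enter mitochondria through the carnitine shuttle, and are shortened by β-oxidation. Peroxisomes carry out a parallel oxidation of very long and branched chains, and in the fasted liver much of the acetyl-CoA made by mitochondria becomes ketone bodies. Lipogenesis runs in the other direction after feeding, from cytosolic acetyl-CoA through palmitate to elongated and desaturated acyl chains that are esterified to triglyceride.

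The bases under the promoter summits show where the calls sat. The 1st sequence below is the whole interval between the transcription start sites (TSSs) of Hadha and Hadhb (chr5:30481703-30481787, mm9, minus strand), which held the strongest promoter peak of the mitochondrial genes and was listed in the vehicle group alone. The other sequences are 160-base stretches around summits of the FGF19 list, upstream of Acaa1a (chr9:119250181-119250340, plus strand), Eci2 (chr13:35086014-35086173, minus strand), Elovl2 (chr13:41315800-41315959, minus strand) and Dgat1 (chr15:76342382-76342541, minus strand), all mm9 and written 5′ to 3′. Capitals mark every match, on either strand, to the NF-Y box ATTGGC or the SP1 box CCCCGCCCC.
Hadha and Hadhb: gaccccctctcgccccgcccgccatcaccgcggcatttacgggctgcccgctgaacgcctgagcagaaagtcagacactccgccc
Acaa1a: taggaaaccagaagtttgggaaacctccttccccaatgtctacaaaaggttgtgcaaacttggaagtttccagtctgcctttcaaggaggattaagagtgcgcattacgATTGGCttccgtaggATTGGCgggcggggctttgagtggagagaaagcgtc
Eci2: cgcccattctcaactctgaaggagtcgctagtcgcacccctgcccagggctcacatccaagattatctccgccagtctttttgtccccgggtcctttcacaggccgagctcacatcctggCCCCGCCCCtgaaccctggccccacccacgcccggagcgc
Elovl2: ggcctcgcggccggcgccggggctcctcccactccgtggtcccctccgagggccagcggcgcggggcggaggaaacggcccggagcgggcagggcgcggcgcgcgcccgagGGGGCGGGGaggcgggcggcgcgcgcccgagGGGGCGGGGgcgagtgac
Dgat1: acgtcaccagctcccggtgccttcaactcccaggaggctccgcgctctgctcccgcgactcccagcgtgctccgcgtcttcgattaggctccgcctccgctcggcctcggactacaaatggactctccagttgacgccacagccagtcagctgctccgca
The Hadha and Hadhb interval and the Dgat1 stretch held none of these letters, which says only that the exact strings are absent from those windows.

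The 1st question was which of the genes carried an SHP peak, and in which list. Of the 43 genes, 15 (34.9%) had a peak in the vehicle list, beside 7.94% of all protein-coding genes, and 14 (32.6%) had one in the FGF19 list, beside 16.3% of all protein-coding genes. Both lists held a peak for 8 genes (18.6%; 4.31% of all genes), the vehicle list alone for 7 (16.3%; 3.62%), and the FGF19 list alone for 6 (14.0%; 12%). A peak in either list was therefore found for 21 genes (48.8%; 19.9%), and 22 genes had none. The genes of the set are long, with a median gene length of 29.9 kb against 15.4 kb for all protein-coding genes, and the part of length in these shares was not tested. They were also chosen with earlier results of these data known. Among 76 other genes of the same pathways, described below, 7.89% had a vehicle peak and 18.4% an FGF19 peak. The part of the choice of genes in these shares was not tested.

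The peaks of oxidation and synthesis genes fell in the lists in different proportions. Among the 29 oxidation genes, 12 (41.4%) had a peak in either list, with 6 (20.7%) in the vehicle list alone, 3 (10.3%) in the FGF19 list alone and 3 (10.3%) in both. Among the 14 synthesis genes, 9 (64.3%) had a peak, with 1 (7.14%) in the vehicle list alone, 3 (21.4%) in the FGF19 list alone and 5 (35.7%) in both. Beside the shares of all protein-coding genes (3.62% vehicle alone, 12% FGF19 alone, 4.31% both), the oxidation genes were not above the background in the FGF19 list alone. These are counts of genes in 1 pooled library per group, and the difference between the groups of genes was not tested.

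**Figure D1:**
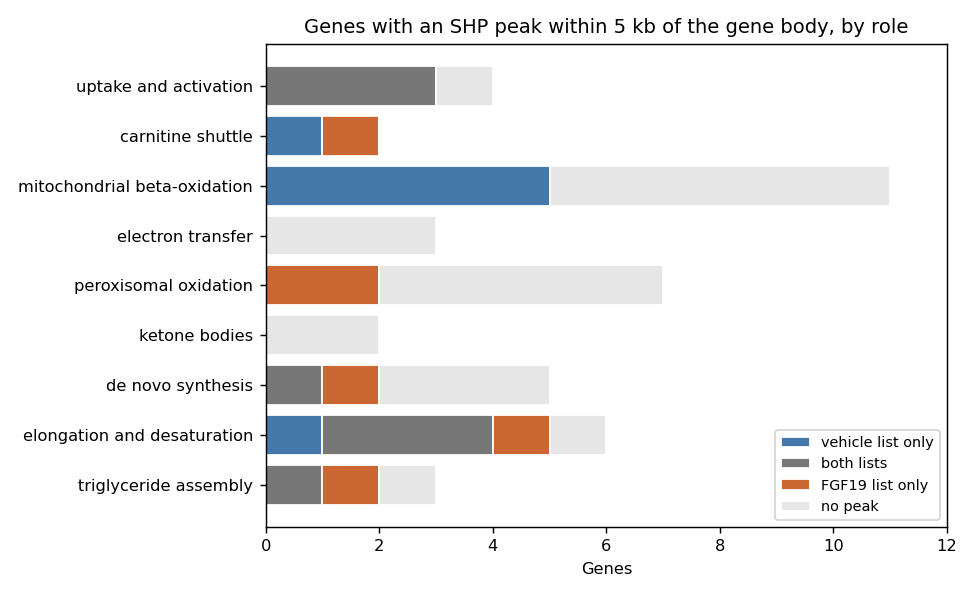
Number of genes (horizontal axis) in each of 9 functional roles (rows), coloured by the list that held a peak within 5 kb of the gene body. All 5 mitochondrial β-oxidation genes with a peak had it in the vehicle list alone, both peroxisomal genes with a peak in the FGF19 list alone, and most genes with a peak in both lists belonged to uptake and activation or to elongation and desaturation. Of all protein-coding genes, 3.62% had a peak in the vehicle list alone, 12% in the FGF19 list alone and 4.31% in both.

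Counting a gene only when a peak summit lay within 1 kb of one of its own TSSs, 14 of the 43 genes had a promoter peak. Of these, 2 had it in both lists (4.65%, beside 2.59% of all protein-coding genes), 5 in the vehicle list alone (11.6%; 2.94%) and 7 in the FGF19 list alone (16.3%; 9.89%). Of the 9 oxidation genes with a promoter peak, 5 had it in the vehicle list alone (17.2% of 29 genes; 2.94% of all genes). The other 4 had it in the FGF19 list alone (13.8%; 9.89%), and none had it in both (2.59% of all genes). The FGF19 share is near the background, and so is a count of 0 in both lists among 29 genes. All 5 of the vehicle list encode mitochondrial enzymes (Cpt2, Acadvl, Acadm, Hadha and Hadhb). The 4 of the FGF19 list were Slc27a2 and Acsl1, listed here under uptake and activation, and Acaa1a and Eci2, listed here under peroxisomal oxidation. Each gene was given 1 role, which does not state every place in the cell where its protein acts. The 5 synthesis genes with a promoter peak all had it in the FGF19 list, and for Fasn and Elovl2 it was also in the vehicle list. With the FGF19 list shortened by q to the length of the vehicle list, only the Fads1 call of these 5 remained, and those of Acly, Fasn, Elovl2 and Dgat1 were lost. Of the 4 FGF19 promoter calls of oxidation genes, those of Acsl1 and Acaa1a remained. The shortened list held calls with a −log10 q from 5.33 up, and the vehicle list was not cut. The vehicle promoter calls of Cpt2 (2.19), Acadm (4.76) and Elovl2 (3.97) were below that value. Those of Acadvl (7.01), Hadha and Hadhb (15.7) and Fasn (5.83) were above it. Hadha and Hadhb share 1 peak, so the 5 vehicle genes rest on 4 peaks.

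Within uptake and activation, 3 of 4 genes (75%) had peaks in both lists, beside 4.31% of all protein-coding genes. Fabp1 encodes the liver fatty acid binding protein, the main cytosolic fatty acid carrier of hepatocytes. Its peaks were at chr6:71151492-71151861 in the vehicle list and at chr6:71151491-71151890 in the FGF19 list, over coding exon 2 of 4, and their summits were 12 bp apart. The vehicle peak had a pileup of 48 tags (95% exact Poisson interval 35.4 to 63.6) and a fold enrichment over local input of 8.07, the highest fold of any vehicle peak of the set. The FGF19 peak had a pileup of 33 tags (22.7 to 46.3) and a fold enrichment of 7.71. Pileup is the number of extended tags that cover the summit, and all intervals given here cover counting error only. Within their own lists these folds stood at percentile 94.5 and percentile 97.7, so that Fabp1 was among the strongly enriched regions of both.

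Acsl1, a long-chain acyl-CoA synthetase, had peaks at both of its ends. At its last exon, which holds the 3′ UTR, the vehicle list had 2 peaks (chr8:47619679-47620916, 29 tags, fold enrichment 6.10, and chr8:47621034-47621307, 27 tags, fold enrichment 4.61), and the FGF19 list had 1 peak that overlapped both (chr8:47619836-47621269, 26 tags, fold enrichment 7.89). The latter was the highest fold of any FGF19 peak of the set. A promoter peak 158 bp upstream of the TSS was listed in the FGF19 group alone (chr8:47556008-47556743, 30 tags, fold enrichment 3.55). Slc27a2, a very-long-chain acyl-CoA synthetase and transporter, also had a call at each end, but no region called in both lists. Its last exon held a vehicle peak (chr2:126413442-126413862, 20 tags, fold enrichment 4.35), 34169 bp from the nearest FGF19 peak. That FGF19 peak lay 487 bp inside the 5′ end of the gene (chr2:126378539-126379273, 22 tags, fold enrichment 2.63). Both genes thus had a promoter call with FGF19 and not with vehicle, but that of Slc27a2, with a −log10 q of 1.90 the weakest FGF19 call of the set, was lost when −log10 q of at least 3 was required. The 4th gene of this role, Acsl5, had no peak.

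The carnitine shuttle was represented by Cpt1a, the outer-membrane transferase that malonyl-CoA inhibits, and Cpt2, its inner-membrane partner. Cpt2 had a vehicle peak 58 bp from a TSS (chr4:107595909-107596178) with 25 tags and a fold enrichment of 2.70, the lowest fold among the vehicle peaks of the set. Its local input background was 8.62 tags, the highest of those vehicle peaks. FGF19 peaks with a local input within 0.5 tags of it were listed from 22 tags up, or 1.64 per 1000000 ChIP tags, and the Cpt2 peak stood at 1.62. Pileup is scaled to library depth here and the matched local input is not. These values therefore cannot decide whether an equal signal would have been listed with FGF19. The FGF19 peak assigned to Cpt1a (chr19:3388952-3389300, 26 tags, fold enrichment 3.09) lay downstream of the gene and 140 bp from a TSS of the neighbouring gene Mtl5, so no call in either list lay at the Cpt1a promoter.

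Among the 11 genes of mitochondrial β-oxidation, 5 (45.5%) had a peak in the vehicle list, beside 7.94% of all protein-coding genes, and none had one in the FGF19 list, beside 16.3%. With 11 genes, a count of 0 is near that background. Hadha and Hadhb encode the α and β subunits of the mitochondrial trifunctional protein, which carries out the last steps of each cycle on long chains, and are transcribed in opposite directions from the interval printed above. Their common vehicle peak (chr5:30481464-30481935) had its summit 13 bp upstream of Hadha and 73 bp upstream of Hadhb, a pileup of 37 tags (26.1 to 51.0) and a fold enrichment of 6.46. The nearest FGF19 peak was 585274 bp away. Among FGF19 peaks with a local input within 0.5 tags of the vehicle value at this site, the lowest listed pileup was 15 tags, or 1.12 per 1000000 ChIP tags, and the vehicle peak stood at 2.39 per 1000000 ChIP tags. Here too the local input was matched in tags that were not scaled to depth. The FGF19 signal at this promoter, below its list's cutoff, was not analysed here.

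The other vehicle peaks of this role were lower. Acadvl and Acadm encode the very-long-chain and medium-chain acyl-CoA dehydrogenases, which take the first step of each cycle. The Acadvl peak (chr11:69828266-69828831) was 174 bp from a TSS, with 24 tags and a fold enrichment of 4.86. The Acadm peak (chr3:153607218-153607522) was 46 bp from a TSS, with 23 tags and a fold enrichment of 3.95. Acaa2, the mitochondrial 3-ketoacyl-CoA thiolase, had its vehicle peak in the 3′ UTR and not at the promoter, with 22 tags and a fold enrichment of 5.24. The nearest FGF19 peaks lay 18780 bp from the Acadvl peak and 30952 bp from the Acadm peak. No peak was listed for Acadl, Acads, Echs1, Hadh, Eci1 or Decr1, the other genes of the same spiral, nor for Etfa, Etfb and Etfdh, which pass its electrons to the respiratory chain.

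Peroxisomal oxidation had 2 of 7 genes with a peak, both in the FGF19 list alone (28.6%, beside 12% of all protein-coding genes). With 7 genes, the count of 0 in the vehicle list is near its background of 7.94%, and 2 genes are too few to set the role apart. Acaa1a, a peroxisomal thiolase, had a promoter peak (chr9:119250072-119250397) with 33 tags (22.7 to 46.3) and a fold enrichment of 6.49, the highest of the 9 FGF19 promoter peaks. Its summit was 151 bp upstream of Acaa1a and 268 bp from a TSS of Myd88. Eci2, an enoyl-CoA isomerase, had an FGF19 peak (chr13:35086007-35086349, 22 tags, fold enrichment 3.20) 81 bp upstream of an internal TSS of its annotated gene body, 32869 bp from the gene start. Acox2, Ehhadh, Hsd17b4, Acaa1b and Decr2 had no peak. The 2 ketone body genes of the set, Acat1 and Bdh1, had none either.

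In de novo synthesis, Fasn and Acly had peaks. Fasn, the multifunctional fatty acid synthase, had a promoter peak in both lists, with 24 tags and a fold enrichment of 4.32 in the vehicle group and 23 tags and a fold enrichment of 3.72 in the FGF19 group. Both summits were within 1 kb of the TSS, and the peaks overlapped. Acly, the enzyme that makes cytosolic acetyl-CoA from citrate, had a peak over its TSS in the FGF19 list alone (chr11:100389032-100389385), with the same 33 tags, fold enrichment of 3.07 and local input of 10.1 tags as the peak at the Dgat1 promoter. The vehicle peak nearest to it was 91322 bp away. The carboxylases Acaca and Acacb and the malic enzyme gene Me1 had no peak.

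Elongation and desaturation had the largest share of genes with a peak among the synthesis roles, 5 of 6 (83.3%, beside 19.9% of all protein-coding genes). Elovl2, an elongase of polyunsaturated chains, had a promoter peak in both lists, with 21 tags and a fold enrichment of 3.80 in the vehicle group (chr13:41315770-41316187) and 23 tags and a fold enrichment of 3.74 in the FGF19 group (chr13:41315665-41316120). In the vehicle list it had 2 more peaks in its last exon (17 and 14 tags, fold enrichments of 4.26 and 3.87). Fads1, the Δ5 desaturase, had an FGF19 peak 139 bp inside its 5′ end (chr19:10257402-10257705, 27 tags, fold enrichment 3.89). The remaining genes of this role had their peaks at the 3′ end. Scd1, the stearoyl-CoA desaturase that makes oleate, had 2 vehicle peaks in its last exon with 15 and 13 tags and fold enrichments of 5.21 and 4.68, the first of them at chr19:44470781-44471035. Elovl5, another elongase of polyunsaturated chains, had 1 peak per list in its last exon, 184 bp apart, with fold enrichments of 5.05 (chr9:77831502-77831846, 18 tags, vehicle) and 4.39 (chr9:77830648-77831318, 17 tags, FGF19). Fads2, the Δ6 desaturase, had overlapping peaks just past its 3′ end, with 27 tags and a fold enrichment of 4.84 with vehicle (chr19:10138202-10138663) and 20 tags and a fold enrichment of 4.94 with FGF19 (chr19:10138090-10138736). Elovl6 had no peak.

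The last step of triglyceride synthesis is catalysed by both Dgat1 and Dgat2, which are unrelated in sequence. Dgat1 had a promoter peak in the FGF19 list alone (chr15:76342232-76342573), with a summit 66 bp upstream of the TSS, 33 tags (22.7 to 46.3) and a fold enrichment of 3.07 over a local input of 10.1 tags. Dgat2 had a peak in its last exon in both lists, with 24 tags and a fold enrichment of 5.64 in the vehicle group (chr7:106302444-106302997) and 19 tags and a fold enrichment of 5.65 in the FGF19 group (chr7:106302559-106302914). The 2 acyltransferase genes therefore differed both in the place of the call and in the list that held it. Gpam, which encodes the acyltransferase of the first step, had no peak.

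**Figure D2:**
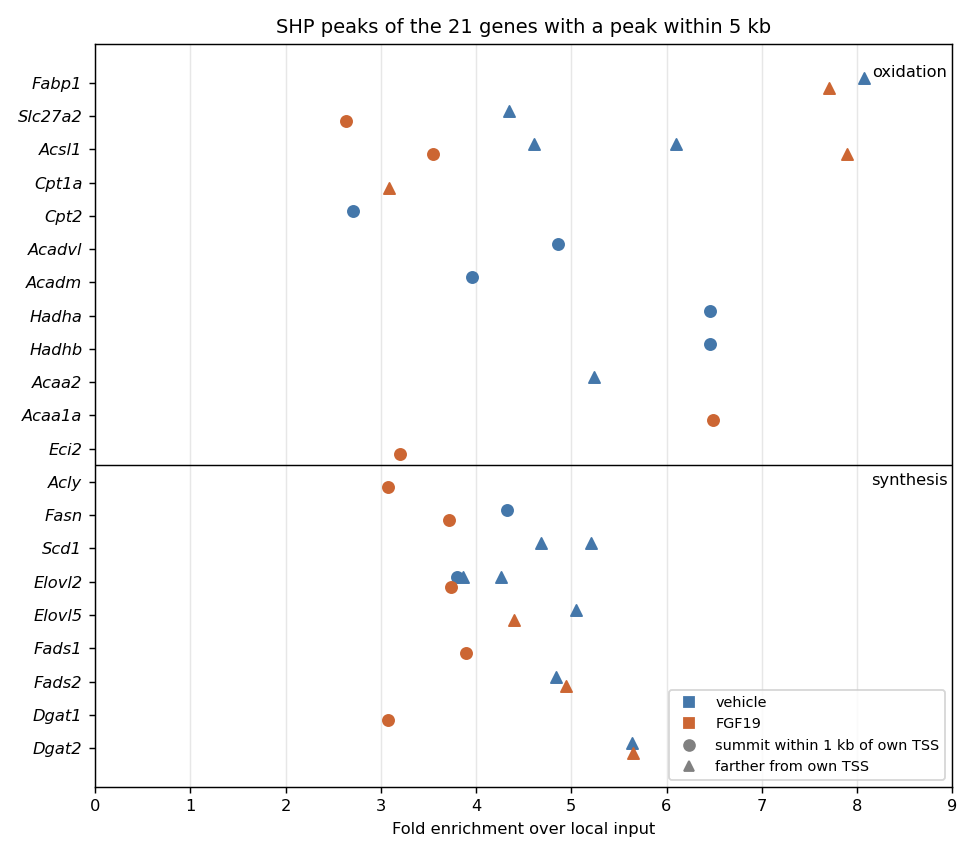
Fold enrichment over local input (horizontal axis) of every SHP peak within 5 kb of the 21 genes with a peak, by gene, with vehicle in blue and FGF19 in orange. Circles are peaks with the summit within 1 kb of a TSS of the gene and triangles are peaks farther away, and Hadha and Hadhb show the same peak. The 15 promoter peaks had a median fold enrichment of 3.74 and the 18 others 4.99.

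The place of the peaks along the genes was counted next. Of the 18 vehicle peaks of the set, 6 (33.3%, 95% Wilson interval 16.3 to 56.3) had the summit within 1 kb of a TSS of any gene, and of the 15 FGF19 peaks 10 did (66.7%, 41.7 to 84.8). Among all listed peaks within 5 kb of a protein-coding gene the same shares were 75.6% of 1436 vehicle peaks and 84.9% of 2991 FGF19 peaks. Conversely, 9 of the 18 vehicle peaks (50%, 29.0 to 71.0) and 3 of the 15 FGF19 peaks (20.0%, 7.05 to 45.2) lay in a 3′ UTR more than 1 kb from every TSS, where 8.57% of those vehicle peaks and 3.95% of those FGF19 peaks lay. The 9 vehicle peaks belonged to 6 genes (Acsl1, Acaa2, Scd1, Elovl2, Elovl5 and Dgat2), and 3 of these genes had 2 such peaks each, so the peaks are not independent of each other. For the 3′-end peaks of Slc27a2, Dgat2, Fads2, Elovl2 and Elovl5 the nearest TSS was that of another gene (Hdc, Uvrag, Fads3, Sycp2l and SNORA17), at distances from 10334 to 31632 bp.

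Promoter calls and the calls farther away differed in local input and, in a way that depended on the genes, in ChIP signal. Over both lists, the 15 promoter peaks had a median pileup of 24 tags and a median local input of 5.45 tags. The 18 peaks away from the gene's own TSS had a median pileup of 21 tags and a median local input of 3.32 tags. Their median fold enrichment was higher (4.99 against 3.74). The lower pileup away from the TSS came from the synthesis genes (17.5 against 24 tags). Among the oxidation genes it was not lower there (26.5 against 24.5 tags over both lists). By list, these oxidation medians were 27 against 24.5 tags with vehicle and 26 against 26 tags with FGF19. Base composition moved with place as well, with a median GC content of 69.2% in the 201 bp around the promoter summits and 50.2% around the others. The part of input and base composition in the calls was not tested.

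**Figure D3:**
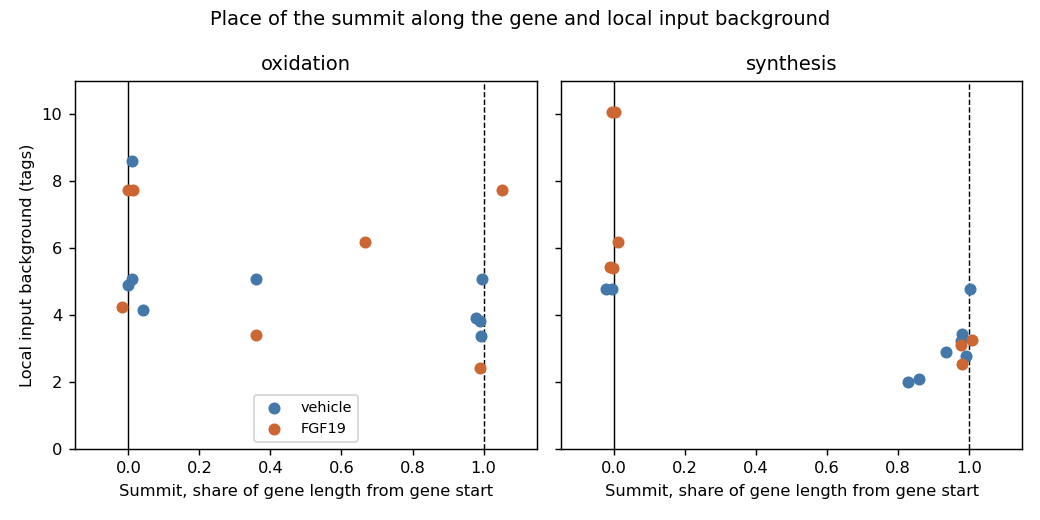
Local input background in tags (vertical axis) against the summit position as a share of gene length from the gene start (horizontal axis, solid line at the start and dashed line at the end of the gene) for oxidation genes (left) and synthesis genes (right), vehicle in blue and FGF19 in orange, with the peak common to Hadha and Hadhb drawn once. Summits gathered at the ends of the genes, apart from those of Fabp1 and Eci2, and the input background of the synthesis genes was at most 4.79 tags at the 3′ end and at least 4.79 tags at the start.

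By list, the median fold enrichment of the peaks of the set was 4.76 with vehicle and 3.74 with FGF19, beside 4.14 and 4.05 over all listed peaks. The oxidation genes had medians of 4.86 (9 peaks) and 3.55 (7 peaks), and the synthesis genes 4.68 (9 peaks) and 3.82 (8 peaks). The order of the FGF19 medians turned round with the FGF19 list shortened to the vehicle length (oxidation 7.10, synthesis 4.94) and with the strongest peak of each gene (4.84 and 3.82). The shortened list held only 7 peaks of the set, 4 of them of oxidation genes. The order was kept with promoter summits alone (3.37 and 3.72) and without the uptake and activation genes (oxidation 3.20). Median pileups of the oxidation peaks were 25 tags with vehicle and 26 tags with FGF19, and those of the synthesis peaks were 18 and 23 tags. The oxidation and synthesis peaks of 1 list thus differed in their median folds by less than the spread of either set, which ran from 2.70 to 8.07 for the vehicle oxidation peaks and from 3.80 to 5.64 for the vehicle synthesis peaks. With FGF19 the folds ran from 2.63 to 7.89 for oxidation and from 3.07 to 5.65 for synthesis.

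Where both lists had overlapping peaks, signal could be set side by side. This was the case in 6 regions, 2 of oxidation genes (Fabp1 and the 3′ end of Acsl1) and 4 of synthesis genes (the promoters of Fasn and Elovl2 and the 3′ ends of Fads2 and Dgat2). The ratio of FGF19 to vehicle pileup per 1000000 ChIP tags was lowest at Fabp1, 0.791 (95% exact conditional interval 0.492 to 1.26), and highest at the Elovl2 promoter, 1.26 (0.667 to 2.39). It was 1.03 (0.584 to 1.82) at Acsl1 and 1.10 (0.595 to 2.04) at Fasn. At Fads2 it was 0.853 (0.453 to 1.58) and at Dgat2 0.911 (0.472 to 1.74). All 6 intervals included 1, and they cover counting error only. The regions were kept because both lists held a peak there, which leaves out every site called in 1 list alone. The ratios therefore do not describe the set as a whole. Fold enrichment was higher with FGF19 in 3 of the 6 regions, with log2 ratios from -0.22 at Fasn to 0.37 at Acsl1. The summits of the 2 lists were more than 100 bp apart at Acsl1 (657 bp), Fads2 (170 bp) and Fasn, so both extremes compare different positions. At Fabp1, Elovl2 and Dgat2, where they were closer, the log2 ratios were -0.07, -0.02 and 0.00.

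**Figure D4:**
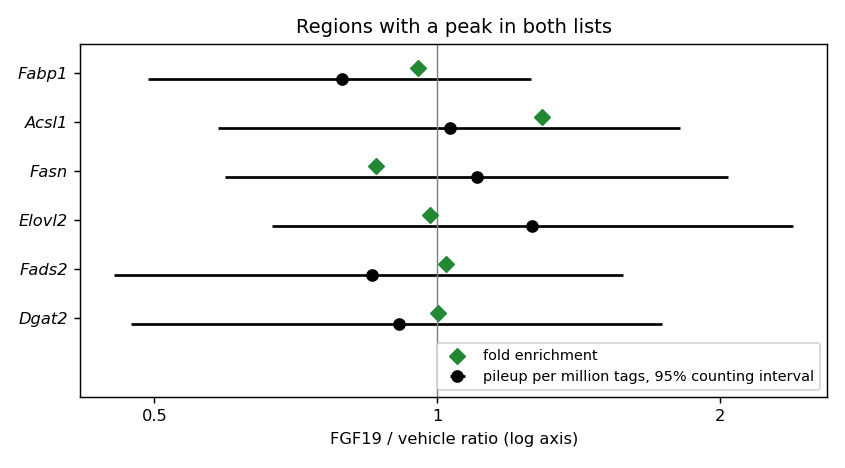
Ratio of FGF19 to vehicle (horizontal log axis) in the 6 regions with overlapping peaks, as pileup per 1000000 ChIP tags (circles, with 95% counting intervals) and as fold enrichment (diamonds). Each interval spans 1, and the fold enrichment ratios scatter on both sides of 1.

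Short motifs were searched, on both strands, in the 201 bp centred on each summit. The SP1 box CCCCGCCCC was in 4 of the 33 windows, all of FGF19 peaks and among them those at Eci2, Acly and Elovl2 (printed above for Eci2 and Elovl2), beside 13.1% of all vehicle peaks, 14.8% of all FGF19 peaks and 11.9% of the starts of all protein-coding genes. At Elovl2 the vehicle window, shifted upstream, held no such box although the peaks overlapped. The NF-Y box ATTGGC was in 1 window, Acaa1a, with 2 copies, and it was in 11.2% of vehicle peaks, 11.1% of FGF19 peaks and 12.0% of gene starts. The nuclear receptor half-site AGGTCA was in 1 window, that of the FGF19 peak at the start of Slc27a2, beside 9.08% of vehicle and 7.15% of FGF19 peaks and 8.91% of gene starts.

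None of the 33 windows held the letters AANATGGC (a core read by YY1), which 9.75% of all vehicle peaks, 7.56% of all FGF19 peaks and 5.70% of gene starts did. The E-box CACGTG was likewise in no window of the set, beside 6.37% of vehicle peaks, 6.42% of FGF19 peaks and 5.57% of gene starts. The NRF1 core GCGCATGC (3.18%, 3.49% and 2.59%) and the sterol element letters TCACNCCAC (0.531%, 0.508% and 0.747%) were also in no window. Of the 33 windows, 18 lay away from the gene's own TSS. By contrast, 72.7% of all vehicle peaks and 81.8% of all FGF19 peaks were within 1 kb of a TSS. The motif shares therefore compare unlike places. A string match is a description of the sequence and shows no binding of the factor named.

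A second list of 76 genes of the same pathways (44 of oxidation and 32 of synthesis) gave the surroundings of the set. Of these, 6 (7.89%) had a peak in the vehicle list and 14 (18.4%) in the FGF19 list, close to the shares of all protein-coding genes given above, and 16 (21.1%) had one in either. The genes with a peak in the FGF19 list alone were Acad11, Acadsb, Crat, Crot, Slc22a5 and Slc27a1 among oxidation genes and Slc25a1, Elovl3, Agpat2 and Agpat5 among synthesis genes. The summits at Acad11, Crot and Elovl3 lay nearer to a TSS of another gene. These were Ccrl1 (478 bp), Gm15610 (5508 bp) and Pitx3 (2503 and 2020 bp). A Crat summit lay 1 bp from a TSS of Ppp2r4, and another lay 10 bp from a TSS of Crat. In the vehicle list alone were Ech1 and Mcat, and Phyh, Slc27a5, Lpin1 and Fads3 were in both, the last of them through the peaks of the adjoining Fads2. At Phyh and Lpin1 the peaks of the lists did not overlap. The vehicle summits were in the 3′ UTR, and the FGF19 summits were in an intron of Phyh and 85 bp from a TSS of Lpin1. The folds of the highest vehicle peaks were 5.33 at Phyh, the peroxisomal hydroxylase of phytanic acid, 4.84 at Fads3 and 4.39 at Lpin1, a phosphatidate phosphatase. Those of the FGF19 list were 6.52 at Slc27a5, the bile acid and fatty acid CoA ligase of hepatocytes, 6.45 at Slc22a5, the carnitine transporter, and 5.95 at Agpat2, an acyltransferase of triglyceride assembly. These 3 FGF19 peaks had their summits within 1 kb of the gene's own TSS, whereas the vehicle summits at Phyh and Lpin1 were in the 3′ UTR. The Phyh summit was 1016 bp from a TSS of Phyh, just outside the 1 kb limit.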

How the data were processed

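SHP ChIP-seq and input libraries of mouse liver were prepared by the authors from chromatin pooled from 3 mice per group, sequenced, and aligned to mm9 by Bowtie with at most 2 mismatches per read. The submitters' processing notes name CASAVA 1.8.2 and Bowtie 1.0.0. Per the file headers, peaks were called with MACS2 2.0.10.20130501, ChIP against the input of the same group, at q 0.05, keeping 1 tag per position. The deposited pileup is the coverage signal of extended tags at the summit (whole numbers here), the deposited fold enrichment is the ratio of pileup to local input (each plus 1), and the deposited −log10 p and −log10 q come from the same caller. Tags were extended to 240 bp (vehicle) and 260 bp (FGF19).

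Every gene of the set was examined, values were given for each gene with a peak, and of the second list those with a peak were named, with values for the 3 of largest fold enrichment per list. A neighbouring gene was named where the summit lay nearer to its TSS, and Myd88 was added after its values were seen. The genes and lists were chosen with earlier results of these data known. Gene bodies and TSSs came from GENCODE M1. Local input was computed back from pileup and fold enrichment. Regions common to both lists overlapped by at least 1 bp. With 1 library per group no test was run. Intervals (95%) are exact Poisson, Wilson or exact conditional binomial. Python 3.11.15, pandas 2.3.3 and scipy 1.17.1 were used. The functions for the distance to the gene body and for motif matches were tested on simulated data, and the others were not. Peak lists do not measure expression, so the tissue label was not checked against markers. Alternatives covered the distance, the q cutoff, the list length, the summary unit and the overlap rule. One promoter sequence is not reported here.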

Additional observations from a re-analysis of the deposited data

How the results depend on the processing

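Each group was 1 pooled library, so the counts carry no error between animals, and no paired analysis was possible because each group has only 1 library. Requiring a summit within 1 kb of the gene's own TSS lowered the genes with a vehicle peak from 15 to 7, those with an FGF19 peak from 14 to 9 and the synthesis genes with any peak from 9 to 5. Shortening the FGF19 list by q to the vehicle list's length lowered the genes with an FGF19 peak to 6 and those in the FGF19 list alone from 6 to 2. This raised the median FGF19 fold of oxidation peaks from 3.55 to 7.10 (4 peaks), above the 4.94 of synthesis peaks. The FGF19 calls lost then were those of Slc27a2, Cpt1a, Eci2, Acly, Fasn, Elovl2, Elovl5 and Dgat1. Requiring −log10 q of at least 3 ended the FGF19 call of Slc27a2 and the vehicle call of Cpt2. Requiring summits at most 100 bp apart lowered the common regions from 6 to 3. Added after seeing the data: leaving out the Cpt1a peak, which lies at the Mtl5 promoter, gave 13 genes with an FGF19 peak, and counting Hadha and Hadhb once gave 14 with a vehicle peak. At pileups of 13 to 48 tags, the counting intervals of single peaks are wide.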
